A study of Mus musculus with 7 samples.

Results

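The T-box transcription factor family was described here by 6 genes, Tbx1, Tbx2, Tbx3, Tbx5, Tbx18 and Tbx20, chosen by name as the deleted gene and its relatives in the heart, out of 23337 gene symbols in the count table. All 6 were in the table and 5 passed the filter on low counts, Tbx1 being the exception. Poly(A) RNA was sequenced from microdissected left ventricles of mouse embryos at embryonic day 12.5, after tamoxifen had been given to the mothers at E11.5. The 2 libraries labelled mutant came from Tbx5flox/flox embryos and the 5 control libraries from Tbx5+/+ embryos. Embryos of both groups carried the allele Gt(ROSA)26Sortm1(cre/ERT2)Tyj, which makes the tamoxifen-activated recombinase CreERT2. It is expressed from the ubiquitous Rosa26 locus and not from a heart-specific promoter, and all embryos were exposed to tamoxifen. Whether embryos shared a litter is not given in the labels, so the p-values cover only the spread among these 7 libraries.

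T-box proteins bind DNA through a shared domain, the T-box, and recognise variants of the same short sequence, so that members present in one cell can occupy the same sites with opposite effects. TBX5 activates chamber genes, with partners such as NKX2-5 and GATA4, and is made most strongly in the atria and the left ventricle. TBX2 and TBX3 are repressors that keep chamber genes off in the atrioventricular canal, and TBX3 also in the conduction system. TBX20 is made throughout the chamber myocardium and in the endocardium, TBX18 marks the epicardium and the myocardium of the venous pole, and TBX1 acts in pharyngeal mesoderm that feeds the outflow tract.

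Library totals were 20268208 and 22680280 counts in the libraries labelled mutant, and 20385656 to 24440806 in the controls. All CPM values are counts scaled by the TMM-adjusted library total. The level of Xist, the transcript that coats the inactive X, was 380 and 509 CPM in the libraries labelled mutant, 0.689 and 1.09 CPM in control replicates 1 and 3, and 311 to 477 CPM in the other controls. In bulk tissue, fewer cells of a type and less RNA per cell cannot be told apart.

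Tbx5, the targeted gene, lies on chromosome 5 from 119832668 to 119885219 on the forward strand (GENCODE, GRCm38, the assembly also called mm10). It stood at 93.8 and 114 CPM in the libraries labelled mutant, against 66.4, 80.4, 98.3, 64.2 and 74.8 CPM in control replicates 1 to 5. The ranges overlapped, since control replicate 3 lay above mutant replicate 1, and Tbx5 RNA was not lower in either library labelled mutant than in 4 of the 5 controls. The log2 fold change was 0.43 (SE 0.15), with a 95% interval of 0.10 to 0.77 and an adjusted p of 0.181 (edgeR quasi-likelihood test; here and below, Benjamini-Hochberg adjusted over all genes tested). The count also takes in exons that the deletion leaves in place and is no check of it, so every direction given here rests on the labels.

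The repressor genes Tbx2 and Tbx3 had lower values in the libraries labelled mutant than in any control. Tbx2, on chromosome 11 from 85832551 to 85841948 on the forward strand, stood at 7.28 and 5.12 CPM in the libraries labelled mutant, against 13.7, 14.5, 14.6, 9.05 and 11.4 CPM in control replicates 1 to 5. The lowest control was replicate 4, and mutant replicate 1 lay nearest under it. The log2 fold change of Tbx2 was -1.03 (SE 0.22), with a 95% interval of -1.52 to -0.55, so that the fitted level was 48.9% of that of the controls. The edgeR quasi-likelihood test gave it an adjusted p of 0.052, just short of the threshold of 0.05.

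Tbx3, on chromosome 5 from 119670669 to 119684724 on the forward strand, had the widest difference of the family. It stood at 1.54 and 3.41 CPM in the libraries labelled mutant, against 11.6, 15.4, 14.7, 4.55 and 10.3 CPM in control replicates 1 to 5. Control replicate 4 was again the lowest control and lay nearer to mutant replicate 2 than to any other control. The log2 fold change was -2.18 (SE 0.50), with a 95% interval of -3.30 to -1.06, a fitted level of 22.1% of that of the controls and an adjusted p of 0.0711 by the edgeR quasi-likelihood test. Without control replicate 4 Tbx2 and Tbx3 passed that test, at -1.12 and -2.37, with adjusted p of 0.0168 and 0.00522. Without mutant replicate 2 neither did, at -0.79 for Tbx2 and -2.87 for Tbx3, with adjusted p of 0.408 and 0.276 by the same test.

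Tbx18, the epicardial and venous-pole factor, lies on chromosome 9 from 87702800 to 87731260 on the reverse strand. It stood at 46.5 and 48.8 CPM in the libraries labelled mutant, against 83.1, 59.9, 58.6, 79.0 and 74.2 CPM in control replicates 1 to 5. Both libraries labelled mutant lay below every control and close together. The log2 fold change was -0.57 (SE 0.14), with a 95% interval of -0.89 to -0.26 and an adjusted p of 0.0809 by the edgeR quasi-likelihood test. An opposite-strand gene, D030062O11Rik, shares 970 exonic bases with Tbx18 in GENCODE, and the library kit does not mark strand, so reads of the pair cannot be told apart there.

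Tbx20, the chamber factor, on chromosome 9 from 24718138 to 24774303 on the reverse strand, stood at 287 and 358 CPM in the libraries labelled mutant, against 360, 335, 265, 354 and 410 CPM in control replicates 1 to 5. Both libraries labelled mutant lay inside the control range. The log2 fold change was -0.10 (SE 0.15) with an adjusted p of 0.783 by the edgeR quasi-likelihood test. Its 95% interval ran from -0.43 to 0.24, which bounds the difference without showing that the groups are alike, and the value was 0.05 without mutant replicate 1.

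Promoters are shown for Tbx18 and Tbx20, to set a member that lay below every control beside one that did not, and for 2 natriuretic peptide genes, since Nppa is a textbook direct target of TBX5 and Nppb had the lowest adjusted p of the genes listed as activated by TBX5. Each window runs from 250 bases before to 50 bases after a transcription start and is given 5′ to 3′ on the strand of the gene (RefSeq, GRCm38.p6). The core of the T-box site was searched as AGGTGT and its reverse complement ACACCT on both strands, and matches are in capitals. The windows are chr9:87731211-87731510 (reverse strand) for Tbx18, chr9:24774254-24774553 (reverse strand) for Tbx20, chr4:148000472-148000771 (forward strand) for Nppa and chr4:147985650-147985949 (forward strand) for Nppb.
Tbx18: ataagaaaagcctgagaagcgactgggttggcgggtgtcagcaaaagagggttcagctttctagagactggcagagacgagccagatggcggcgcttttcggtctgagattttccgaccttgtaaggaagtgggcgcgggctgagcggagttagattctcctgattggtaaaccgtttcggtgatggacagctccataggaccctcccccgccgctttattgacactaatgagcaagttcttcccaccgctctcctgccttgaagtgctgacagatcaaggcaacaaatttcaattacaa
Tbx20: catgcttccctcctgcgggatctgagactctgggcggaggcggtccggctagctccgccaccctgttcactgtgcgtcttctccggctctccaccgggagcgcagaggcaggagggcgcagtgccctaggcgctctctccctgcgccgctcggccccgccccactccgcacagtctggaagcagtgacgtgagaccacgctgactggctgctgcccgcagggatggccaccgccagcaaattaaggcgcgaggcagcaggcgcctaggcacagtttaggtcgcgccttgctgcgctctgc
Nppa: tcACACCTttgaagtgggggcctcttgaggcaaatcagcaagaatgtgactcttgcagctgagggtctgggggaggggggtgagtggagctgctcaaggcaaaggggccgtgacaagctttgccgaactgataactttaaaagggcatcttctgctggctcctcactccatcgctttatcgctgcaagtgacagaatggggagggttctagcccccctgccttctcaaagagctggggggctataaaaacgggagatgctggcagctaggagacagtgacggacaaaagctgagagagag
Nppb: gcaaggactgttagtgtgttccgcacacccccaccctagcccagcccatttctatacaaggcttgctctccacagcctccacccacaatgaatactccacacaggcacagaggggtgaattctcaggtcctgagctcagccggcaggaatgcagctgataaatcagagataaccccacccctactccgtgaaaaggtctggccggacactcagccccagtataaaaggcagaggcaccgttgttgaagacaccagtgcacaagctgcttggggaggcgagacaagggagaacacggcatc

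The single match in these 4 windows begins at position -248 from the start of Nppa, inside a longer T-box match, TCACACCT (AGGTGTGA on the other strand). The core was found in 13.7% of all 32851 promoter windows and the longer form in 1.28%. Of the members, 3 had windows, Tbx1, Tbx18 and Tbx20, and 1 of their 4 windows held the core, at an upstream start of Tbx1. A match is a description of letters and not of binding, and a window without one says only that these letters are not in it.

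Tbx1, on chromosome 16 from 18580979 to 18590671 on the reverse strand, was close to absent from the ventricle. It had 1 and 0 counts in the libraries labelled mutant, against 5, 1, 1, 0 and 1 counts in control replicates 1 to 5. At this depth no difference could be detected, and no fold is given.

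**Figure D1:**
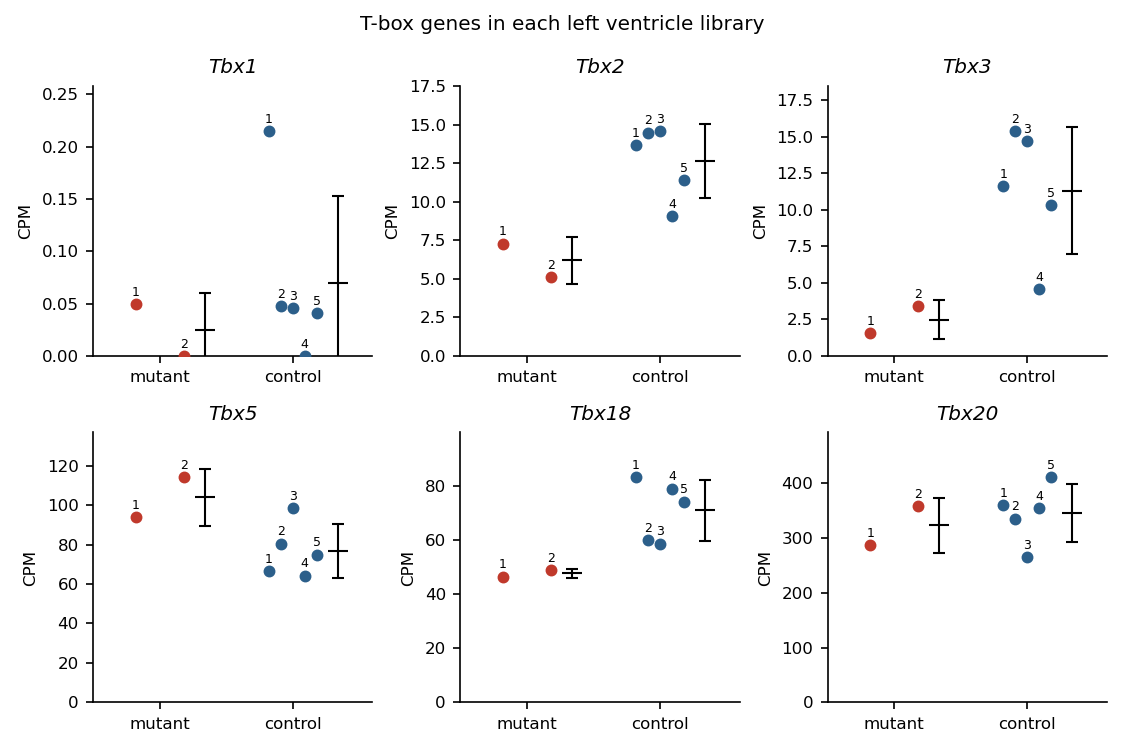
Level of each T-box gene in CPM (vertical axes, from 0) in the 2 libraries labelled mutant and the 5 controls; each point is a library with its replicate number, and the bar to the right gives the mean and SD. Tbx2, Tbx3 and Tbx18 lie below every control in both libraries labelled mutant, while Tbx5 and Tbx20 overlap the controls.

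Of the 5 members tested, 0 were called by the edgeR quasi-likelihood test at an adjusted p of 0.05, where 1.36% of all 14691 genes tested were called. At an unadjusted p under 0.05 there were 4, Tbx2, Tbx3 and Tbx18 lower and Tbx5 higher, where 17.6% of all genes tested reached that level. Both libraries labelled mutant lay below all controls for 3 of the 5, where this held for 10.4% of all genes tested, and above all controls for 0 of the 5, where it held for 9.73%. In either direction the groups were thus apart for 3 of the 5 members and for 20.2% of all genes tested. The members are few and were chosen by name, so these counts are a description.

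The call depended on the test. DESeq2 called 3 members lower, Tbx2 at an adjusted p of 0.000593, Tbx3 at 0.00508 and Tbx18 at 0.00982, and limma-voom called 0, at 0.0853, 0.131 and 0.105 for the same genes. Of all 14691 genes tested, DESeq2 called 435 lower and 351 higher, and limma-voom called 65 lower and 49 higher. These numbers are the background for every count by DESeq2 or limma-voom given below. The authors' deposited table lists Tbx2, Tbx3 and Tbx18 as significant, with log2 fold changes of -1.04 for Tbx2, -2.19 for Tbx3 and -0.58 for Tbx18. In the authors' deposited table their false discovery rates are 0.000728, 2.45e-05 and 0.00414, and Tbx1, Tbx5 and Tbx20 are not listed. Of the genes tested here, 2.69% are listed as lower in the authors' deposited table. The fold changes computed here for these 3 genes differed from the listed ones by less than their SE.

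A test of each gene by itself took no estimate of spread from other genes, though its CPM values rest on TMM factors from all genes. In an exact two-sided permutation test of the mean log2 CPM over all 21 ways of choosing 2 of the 7 libraries, Tbx2, Tbx3 and Tbx18 each gave p = 0.0476, the smallest value this design allows. The exact permutation test gave p = 0.143 for Tbx5 and p = 0.714 for Tbx20. These p-values are not adjusted over the members. The smallest p largely restates that both libraries labelled mutant lay apart from all controls, which held for 20.2% of all genes tested.

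**Figure D2:**
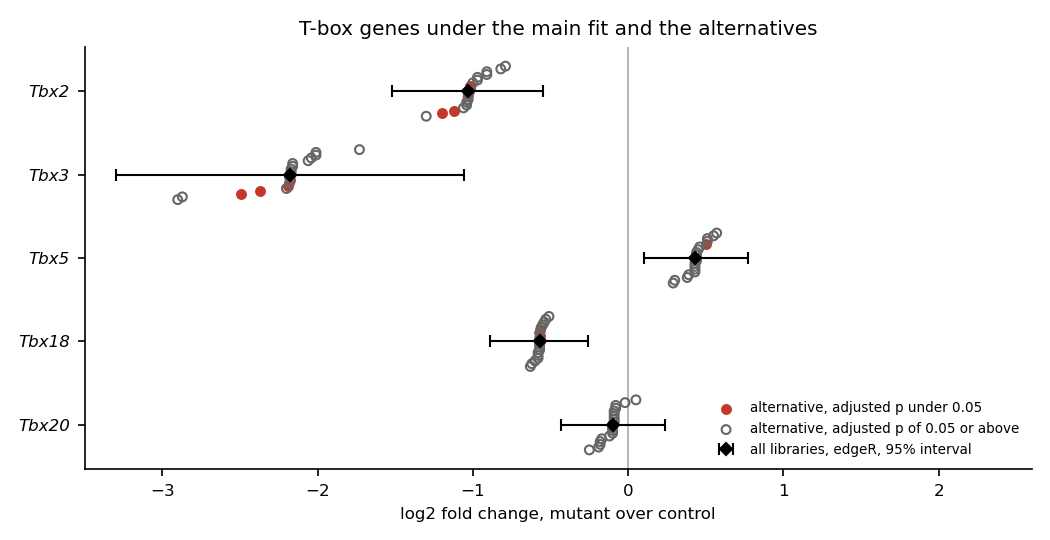
Log2 fold change, libraries labelled mutant over controls (horizontal axis), of the 5 tested T-box genes; diamonds with bars are the edgeR estimate from all libraries with its 95% interval, and circles the alternative fits, filled where the adjusted p was under 0.05. Tbx2, Tbx3 and Tbx18 stay below 0 and Tbx5 above 0 in every fit shown, Tbx20 lies on both sides of 0, and most circles are open.

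Counts of the other members were also set against those of Tbx5 within each library, where the ratio does not depend on library size. These are ratios of RNA counts, and since the Tbx5 count takes in exons that the deletion leaves in place, they do not measure repressor against TBX5 protein. For every 100 counts of Tbx5 there were 9.40 and 7.49 counts of Tbx2 and Tbx3 together in the libraries labelled mutant, against 38.2, 37.2, 29.8, 21.2 and 29.0 in control replicates 1 to 5. The groups did not overlap. The log2 ratio averaged -3.57 ± 0.23 (SD, n = 2) in the libraries labelled mutant and -1.72 ± 0.34 (SD, n = 5) in the controls, a difference of -1.86, or a ratio 0.276 times that of the controls.

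Tbx2 and Tbx3 taken alone had the same order. Tbx3 was at 1.64 and 3.0 counts per 100 counts of Tbx5 in the libraries labelled mutant, against 17.5, 19.2, 14.9, 7.09 and 13.8 in control replicates 1 to 5. Tbx2 was at 7.76 and 4.50 in the libraries labelled mutant, against 20.7, 18, 14.9, 14.1 and 15.2 in control replicates 1 to 5. Mutant replicate 1 held relatively more Tbx2 and mutant replicate 2 relatively more Tbx3.

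Tbx18 was at 49.6 and 42.9 counts per 100 counts of Tbx5 in the libraries labelled mutant, against 59.6 to 125 in the controls. Tbx20 was at 306 and 314 in the libraries labelled mutant, against 270 to 551 in the controls, so that these ranges overlapped. In the exact two-sided permutation test the 4 ratios with Tbx2, Tbx3, Tbx18 or the sum of Tbx2 and Tbx3 each gave p = 0.0476, the smallest possible, or 0.0595 with Benjamini-Hochberg adjustment over the 5 ratios. The same exact permutation test gave Tbx20 to Tbx5 p = 0.286, the same after adjustment. Tbx2, Tbx3 and Tbx18 already lay below every control by themselves, and the shared denominator, Tbx5, had a log2 fold change of 0.43. The ratio tests thus read the same counts again and add no separate support.

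**Figure D3:**
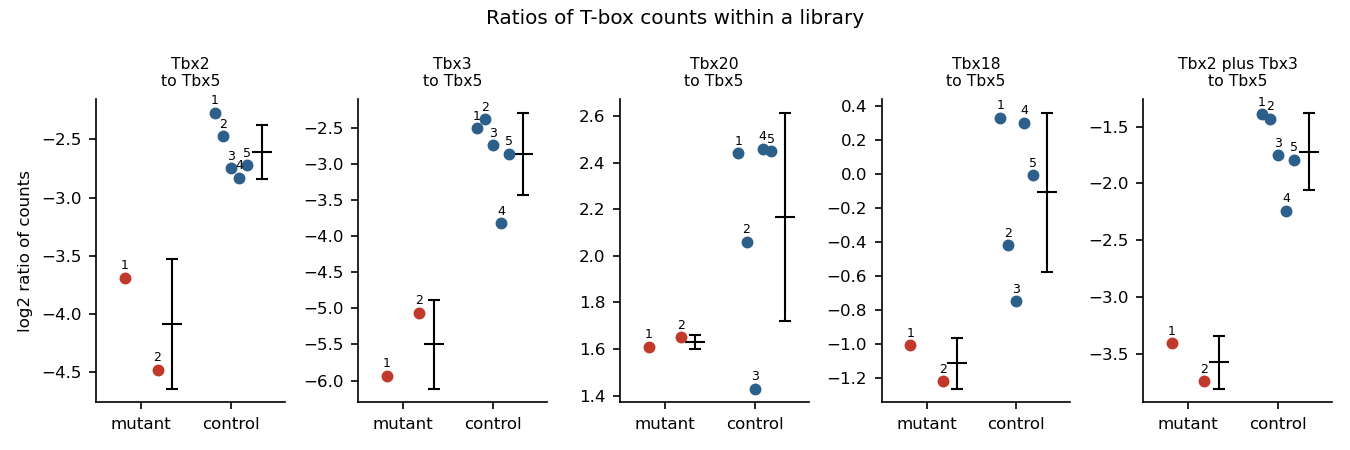
Log2 ratio of the counts of each T-box gene to the counts of Tbx5 in the same library (vertical axes), for the 2 libraries labelled mutant and the 5 controls; points are libraries with their replicate number and bars give the mean and SD. In the panels with Tbx2, Tbx3, their sum and Tbx18 both libraries labelled mutant lie below every control, and in the panel with Tbx20 they lie inside the control range.

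Levels were compared between genes per kilobase of merged GENCODE exons. Tbx20 led at 26.9 ± 4.15 CPM per kilobase (SD, n = 2) in the libraries labelled mutant and 28.7 ± 4.36 (SD, n = 5) in the controls. Tbx5 followed at 22.2 ± 3.02 in the libraries labelled mutant and 16.4 ± 2.92 in the controls, and Tbx18 at 10.1 ± 0.339 in the libraries labelled mutant and 15 ± 2.36 in the controls. In the controls Tbx5 and Tbx18 were neighbours whose ranges overlapped, at 13.7 to 21 and 12.4 to 17.6 CPM per kilobase, so their order there is not resolved.

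Tbx2 and Tbx3 were far rarer per length. Tbx2 stood at 1.71 ± 0.422 CPM per kilobase (SD, n = 2) in the libraries labelled mutant and 3.49 ± 0.66 (SD, n = 5) in the controls, and Tbx3 at 0.373 ± 0.20 in the libraries labelled mutant and 1.71 ± 0.653 in the controls. Of the summed level per length of all 17 T-box genes, Tbx5 made up 32.9% ± 0.444 (SD, n = 2) in the libraries labelled mutant and 23.3% ± 5.04 (SD, n = 5) in the controls. The share of Tbx20 was 39.8% ± 1.28 in the libraries labelled mutant and 40.4% ± 4.49 in the controls, and that of Tbx3 was 0.54% ± 0.231 in the libraries labelled mutant and 2.43% ± 0.983 in the controls.

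The 11 other T-box genes of the mouse were present in the table, and 2 of them passed the filter. Mga, which joins a T-box to a domain that pairs with MAX, stood at 75.8 and 95.9 CPM in the libraries labelled mutant and 66.5 to 91.7 CPM in the controls, a log2 fold change of 0.22 (SE 0.14) with an edgeR adjusted p of 0.431. Tbx6, a gene of the paraxial mesoderm, had 3 and 12 counts in the libraries labelled mutant, against 8 to 15 in the controls. The remaining 9 had at most 10 counts in any library: Tbx19 had 0 in all 7, and the hindlimb factor Tbx4, the closest relative of Tbx5, had 10 and 3 in the libraries labelled mutant and 2 to 8 in the controls. Eomes, a factor of early mesoderm, had 7 and 6 counts in the libraries labelled mutant and 3 to 6 in the controls. None of these 9 genes thus reached 1 CPM in any library of either group.

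**Figure D4:**
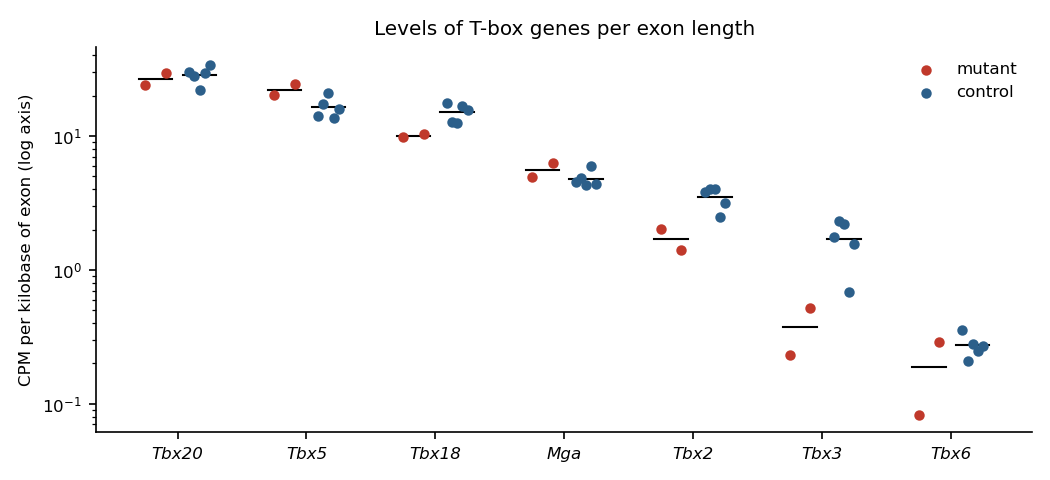
CPM per kilobase of merged exons on a log axis for the 7 T-box genes that passed the filter, in order of their level in the controls, with the libraries labelled mutant left of the controls in each pair; points are libraries and lines the group means. Tbx20, Tbx5 and Tbx18 lie near or above 10 CPM per kilobase in both groups, and Tbx3 has the widest gap between the groups.

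Relatives of a family can share reads, which would blur counts. Of 6660 distinct stretches of 50 bases, the read length, in Tbx3 transcripts and 3577 in Tbx2 transcripts, 0 occurred in another T-box gene, and the same held for the other 4 members. In Tbx18, 852 of 4668 stretches (18.3%) occurred in some other gene. In Tbx3 it was 67 of 6660 stretches (1.01%), in Tbx5 0.368% and in Tbx20 0.0834%. Tbx3 shares 115 exonic bases with an opposite-strand gene, Tbx3os1, from which its reads cannot be told apart there. Both strands were searched, so the shared stretches can include such overlaps, here and in Tbx18, and are no separate source.

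Genes around the family were described by lists drawn from textbook knowledge, which share some genes. The lists were chosen with earlier results of these data known, so their counts are a description. They were read against all 14691 genes tested, of which 48.6% had a positive log2 fold change and whose median was -0.00803. Of 25 genes reported to be activated by TBX5, 5 were called lower and 1 higher, where 0.899% of all genes tested were called lower and 0.463% higher, and the median was -0.16. Nppb, the B-type natriuretic peptide, fell to 69.9 and 64.9 CPM in the libraries labelled mutant, against 137 to 174 CPM in the controls. Rspo3, a secreted WNT enhancer, fell by 1.38 (SE 0.23) on the log2 scale, with an edgeR adjusted p of 0.0202. Sln, sarcolipin, an atrial inhibitor of the calcium pump, had a log2 fold change of -4.21 (SE 0.66), with an edgeR adjusted p of 0.0227. Nppa itself overlapped between the groups, at 1560 and 1620 CPM in the libraries labelled mutant and 1340 to 2390 CPM in the controls. In place of these 6 calls there were 3 lower without control replicate 2, 2 lower and 1 higher without mutant replicate 1, and 1 lower without mutant replicate 2, and Nppb kept its call with any 1 library left out.

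Genes that TBX2 or TBX3 hold down did not move together. Of 12 tested, 1 was called higher and 1 lower, 4 lay on the higher side, and the median log2 fold change was -0.10. Kcnj12, an inward rectifier potassium channel of working myocardium, rose to 7.18 and 12.1 CPM in the libraries labelled mutant, against 3.46 to 4.09 CPM in the controls, with an edgeR adjusted p of 0.0129. Gja5, which encodes connexin 40 and is on the TBX5 list too, fell by 1.77 (SE 0.34) on the log2 scale, with an edgeR adjusted p of 0.0471. Gja1, connexin 43, was at -0.45 (SE 0.26) on the log2 fold change scale, short of a call. Kcnj12 lost its call without mutant replicate 2 (edgeR adjusted p of 0.187). Gja5 was not called when control replicate 1, control replicate 2 or either mutant replicate was left out, at edgeR adjusted p of 0.0641 to 0.253.

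Of 26 tested genes for proteins that work with T-box factors, 1 was called higher and none lower by the edgeR quasi-likelihood test, with a median of 0.11. At an unadjusted p under 0.05 there were 8, where 17.6% of all genes tested reached that level. DESeq2 called 2 higher and 2 lower, and limma-voom 0. Of the 26, 6 lay above every control and 3 below, where 9.73% and 10.4% of all genes tested did. Mef2c, a MADS-box factor and TBX5 partner, rose to 110 and 123 CPM in the libraries labelled mutant, against 79.8 to 94.3 CPM in the controls. Its edgeR adjusted p was 0.0374, and leaving out any one of control replicates 1 to 4 or mutant replicate 2 ended the call, at 0.0544 to 0.293. Without control replicate 5 or without mutant replicate 1 the list had 2 genes called higher, and without control replicate 4 it had 1 called lower. Nkx2-5 and Gata4, the homeobox and zinc-finger partners of TBX5, stood at 0.14 (SE 0.13) and 0.17 (SE 0.08) on the log2 fold change scale, and Chd4, the remodeller recruited by both TBX5 and TBX20, 0.14 (SE 0.10).

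Signals that act upstream of T-box genes gave 0 calls among 24 tested by the edgeR quasi-likelihood test, with a median of 0.02. At an unadjusted p under 0.05 there were 5, DESeq2 called 3 lower and limma-voom 0. Bmpr1a, a BMP receptor, and Hey2, a Notch-regulated repressor that limits Tbx2 to the canal, lay at 0.05 (SE 0.11) and -0.12 (SE 0.10) on the log2 fold change scale. Bmp2, the canal ligand known to switch on Tbx2 and Tbx3, stood at 2.77 and 4.16 CPM in the libraries labelled mutant, against 12.4, 11.3, 9.81, 4.55 and 9.80 CPM in control replicates 1 to 5. Like Tbx2 and Tbx3, it lay below every control in both libraries labelled mutant, with replicate 4 the lowest control. At a log2 fold change of -1.46 (SE 0.35) its edgeR adjusted p was 0.0757, and it was singled out after its values were seen. Of the 24 genes, 4 lay below every control and 1 above, where 10.4% and 9.73% of all genes tested did. The other BMP ligands listed, Bmp4, Bmp5, Bmp7 and Bmp10, had log2 fold changes of -0.41, 0.36, 0.18 and 0.12. The part of Bmp2 in the Tbx2 and Tbx3 values was not tested.

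Most markers of the regions where Tbx2 and Tbx3 are made were low in the same libraries. Of 13 tested genes of atrioventricular canal and conduction myocardium 3 were called lower and none higher, 12 lay on the lower side, and the median log2 fold change was -1.41. The 3 were Rspo3, given above, Smoc2, a matricellular protein, at -1.13 (SE 0.19), and the T-type calcium channel gene Cacna1g at -1.41 (SE 0.28), with edgeR adjusted p of 0.024 and 0.0427 for Smoc2 and Cacna1g. The mean log2 CPM of the list was 2.23 and 2.29 in the libraries labelled mutant, against 4.05, 4.31, 4.33, 2.71 and 3.87 in control replicates 1 to 5, and its summed level was 194 and 226 CPM in the libraries labelled mutant and 218 to 424 CPM in the controls. Among the controls, replicate 4 was lowest for 11 of the 13 genes, where it was the lowest for 20.1% of all genes tested. Shox2, a factor of the pacemaker and venous pole, stood at 0.149 and 0.262 CPM in the libraries labelled mutant and at 0.346 CPM in control replicate 4, against 4.76 to 12.6 CPM in the other controls. The gene on the higher side, Gjc1, lay above every control. It stood at 51.8 and 60.9 CPM in the libraries labelled mutant, against 42.4 to 49.0 CPM in the controls. The number called was 0 without either mutant replicate, 1 without control replicate 1 or 2 and 9 without control replicate 4. Whether the dissections held different amounts of canal tissue was not tested.

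Atrial markers had the same layout. Of 15 tested genes 7 passed as lower and 0 as higher, with a median of -0.99, among them Angpt1, Gpr22, Stard10 and Fgf12. Their mean log2 CPM was 4.46 and 4.56 in the libraries labelled mutant, against 5.67, 5.68, 5.82, 5.10 and 5.75 in control replicates 1 to 5, with control replicate 4 the lowest for 13 of the 15 genes. The summed level was 4530 and 4810 CPM in the libraries labelled mutant and 4250 to 6430 CPM in the controls. Leaving out control replicate 1 or 2 gave 4 calls, leaving out mutant replicate 1 gave 3 and leaving out mutant replicate 2 gave 1. Ventricular markers gave 0 calls among 14 by the edgeR quasi-likelihood test, with a median of 0.03 and a mean log2 CPM of 6.41 and 6.60 in the libraries labelled mutant and 6.33 to 6.81 in the controls. At an unadjusted p under 0.05 there were 6, and DESeq2 called 2 higher and 1 lower. The most abundant of them lay apart between the groups in opposite directions: Myl2, a ventricular myosin light chain, was at 6260 and 5720 CPM in the libraries labelled mutant against 7430 to 10800 CPM in the controls. Myh7, a ventricular myosin heavy chain, was at 11600 and 14900 CPM in the libraries labelled mutant against 7720 to 10200 CPM in the controls, and the edgeR adjusted p was 0.0586 for Myl2 and 0.0711 for Myh7. Markers of the labelled tissue were thus abundant in both groups. Whether the canal and atrial marker levels account for those of Tbx2 and Tbx3 was not tested.

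Though Tbx18 RNA is not confined to the epicardium, it was set beside the markers of that layer. Of 12 tested 1 was called lower, the keratin Krt19 at -0.85 (SE 0.10), with an edgeR adjusted p of 0.00499, and the median was -0.34. Leaving out mutant replicate 2 ended the call of Krt19 (edgeR adjusted p of 0.0663), and leaving out mutant replicate 1 gave 2 lower calls. DESeq2 called 3 of the 12 lower, where it called 435 of all 14691 genes tested lower. A negative fitted value was found for 9 of the 12. Like Tbx18, 3 of the 12 lay below every control in both libraries labelled mutant, where 10.4% of all genes tested did. They were Krt19, Tcf21 and Aldh1a2. Tcf21, an epicardial and fibroblast factor, was at 44.1 and 26.5 CPM in the libraries labelled mutant against 47.4 to 63.5 CPM in the controls. Aldh1a2, which makes retinoic acid, was at 29.8 and 19.3 CPM in the libraries labelled mutant against 31.5 to 49.4 CPM in the controls. The mean log2 CPM of the list was 5.02 and 4.48 in the libraries labelled mutant, against 5.08, 5.27, 5.25, 5.14 and 4.49 in control replicates 1 to 5, and the summed level was 523 and 359 CPM in the libraries labelled mutant and 394 to 658 CPM in the controls. Control replicate 5 had the lowest control value for all 12 genes. It was also the lowest control for 4181 of all 14691 genes tested, more than any other control. Its Tbx18 level was 74.2 CPM, in the middle of the controls. Wt1, the defining zinc-finger factor of the epicardium, was at 38.7 and 28.9 CPM in the libraries labelled mutant and 27.3 to 38.6 CPM in the controls. The part of epicardial cells in the Tbx18 values was not tested.

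Cushion mesenchyme, in which Tbx2 and Tbx20 are also made, was the list, of the marker lists used here, with the most genes outside the control range. Of 14 tested genes 7 passed as lower and 0 as higher, with Postn, Twist1, Col1a1 and Lum among those called, and the median was -0.97. Both libraries labelled mutant lay below every control for 13 of the 14, where this held for 10.4% of all genes tested. Its summed level was 1870 and 2220 CPM in the libraries labelled mutant and 2970 to 4920 CPM in the controls. Leaving out control replicate 2 gave 4 lower calls, leaving out mutant replicate 1 gave 1 lower and 1 higher, and leaving out mutant replicate 2 gave 0 in either direction. Of 11 endothelial and endocardial markers 0 were called by the edgeR quasi-likelihood test, with a median of -0.03 and a mean log2 CPM of 6.03 and 6.52 in the libraries labelled mutant and 6.12 to 6.67 in the controls. At an unadjusted p under 0.05 there was 1, and DESeq2 called 0. Eng, an endothelial co-receptor, stood at 153 and 199 CPM in the libraries labelled mutant and 119 to 206 CPM in the controls, and Cdh5, the endothelial cadherin, at 113 and 188 CPM in the libraries labelled mutant and 132 to 184 CPM in the controls. The outflow tract and pharyngeal list, set beside Tbx1, gave 0 calls among 8 by the same edgeR test, with a median of 0.02. At an unadjusted p under 0.05 there was 1, and DESeq2 called 1 lower. Sema3c, a guidance cue of the outflow tract, stood at 11.7 and 18.9 CPM in the libraries labelled mutant and 24.4 to 27.4 CPM in the controls, with an edgeR adjusted p of 0.0543, and Dlk1 overlapped between the groups. The part of these cell types in the values of Tbx2, Tbx18 and Tbx20 was not tested.

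**Figure D5:**
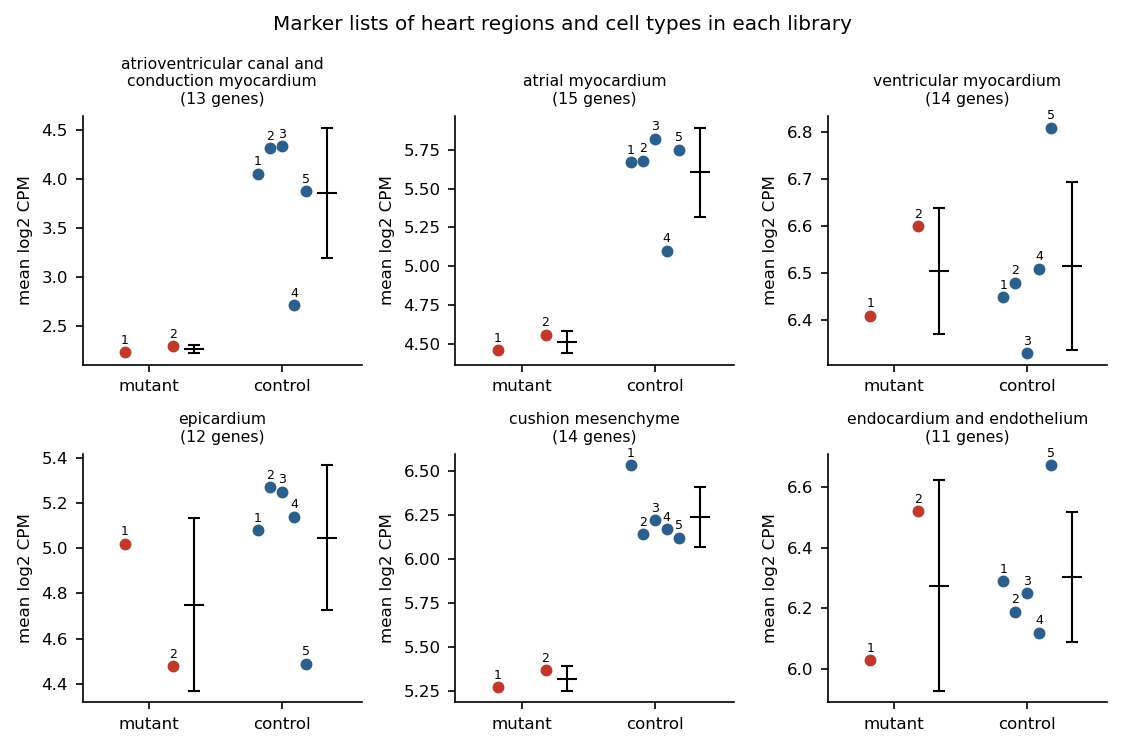
Mean log2 CPM of 6 marker lists (vertical axes, which do not start at 0) in the 2 libraries labelled mutant and the 5 controls; points are libraries with their replicate number and bars give the mean and SD. The canal, atrial and cushion lists are lowest in the libraries labelled mutant, with control replicate 4 the next lowest in the canal and atrial panels, and the other 3 lists overlap between the groups.

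The genes whose pattern over the 7 libraries lay closest to each member were listed as a description, by the root mean square difference of centred log2 CPM among 9884 genes with a mean of at least 10 CPM. For Tbx3 these were Cacna2d2, a calcium channel subunit, at 0.322, Rgs6, a regulator of G-protein signalling, at 0.326, and Cpne5, a copine, at 0.348, against a spread of Tbx3 itself of 1.14. Cacna2d2 and Cpne5 are on the canal and conduction list. For Tbx2 they were C1qc, a complement subunit made by macrophages, at 0.124, Fzd7, a WNT receptor, at 0.127 and Lyz1 at 0.163. For Tbx18 they were Kctd12 at 0.0649, Arid5a at 0.0982 and Capg, an actin-capping protein, at 0.101. For Tbx5 they were Rasl10b, Klhl38 and Fam13a at 0.112 to 0.122, and for Tbx20 Bcl6b, Btbd3 and Frmd6 at 0.0437 to 0.0753. Of these 15 genes C1qc alone was called by the edgeR quasi-likelihood test, at -0.97 (SE 0.18) on the log2 fold change scale, with an adjusted p of 0.0304.

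Macrophage and erythroid markers were read as well, since blood and immune cells are present in the embryonic heart. Of 11 macrophage genes 3 were called lower, C1qa, C1qc and Lyz2, and the summed level was 203 and 138 CPM in the libraries labelled mutant and 210 to 297 CPM in the controls. Of 9 erythroid genes, among them the globins Hbb-y and Hba-a1, 0 were called by the edgeR quasi-likelihood test and 0 by DESeq2, with 0 at an unadjusted p under 0.05, and the summed level was 5170 and 5440 CPM in the libraries labelled mutant and 4260 to 9560 CPM in the controls. Leaving out control replicate 1, control replicate 2 or mutant replicate 2 left 0 macrophage calls by the same edgeR test, and leaving out control replicate 3 left 1. The part of these cells in the values of the T-box genes was not tested.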

How the data were processed

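Poly(A) RNA from the left ventricles of 7 mouse embryos was sequenced by the submitters as single-end reads of 50 bases, from TruSeq libraries of a kind that does not mark strand, per the labels' protocols. The authors' deposited table of counts gives reads per gene symbol as whole numbers, not normalized. Per the submitters' processing notes reads were processed with mm10, and edgeR 3.16.5, limma 3.30.13, R 3.3.2, featureCounts and TopHat2 2.1.1 are named without roles. Not given in the sources used here: gene annotation and strand setting. The authors' deposited table of significant genes lists, per the file headers, a log fold change (read as log2, since it matched the values found here), a p-value and an FDR, and names no test.

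The analysis used edgeR 4.0.16 under R 4.3.3, and filterByExpr with a minimum count of 10 and total of 15 kept 14691 of 23337 genes. TMM factors and the robust quasi-likelihood fit followed, with genotype as the only term and Benjamini-Hochberg adjustment over all genes tested. The procedure was tested on simulated data with changes set into genes of higher count. It recovered 57.7% of 1.5-fold, 88.6% of 2-fold and 100% of 4-fold changes, and 7.69% of its calls were false. Each SE is the fold change on the log2 scale over the square root of F. A list's value is its mean log2 CPM (prior count 2). Alternatives used DESeq2 1.42.0 and limma 3.58.1. Exon lengths came from GENCODE vM21 and promoters from RefSeq. Figures used matplotlib 3.10.9. Groups and replicate numbers came from the sample titles. The members, lists and tests were chosen with earlier results of these data known. Genes named were the members, the other T-box genes, up to 4 called genes per list or else the 2 most abundant, and the 3 nearest patterns per member. The others were chosen after their values were seen: Nppa, Gja1, Nkx2-5, Gata4, Chd4, Bmp2, Bmp4, Bmp5, Bmp7, Bmp10, Shox2, Gjc1, Myl4, Pam, Wt1, Tcf21 and Aldh1a2. Some values that this rule would name are not reported here.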

Additional observations from a re-analysis of the deposited data

Results flagged for a closer look

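A control lay apart from the other controls, by the gap to its nearest neighbour over the whole range, in 8 of 73 quantities checked. Chance gives about 1 in 20 for independent, normally spread quantities. The genes, lists and ratios checked share values, so no excess over chance is read from this count. The mean log2 CPM of the T-box members was 5.24 in control replicate 4, against 5.60 to 5.69 in the other controls. In the same library the canal and conduction list stood at 2.71, against 3.87 to 4.33 in the other controls, and the atrial list at 5.10, against 5.67 to 5.82. Control replicate 5 stood at 4.49 for the epicardial list, against 5.08 to 5.27 in the other controls, and at 6.79 for the genes held down by TBX2 or TBX3, against 6.42 to 6.52. Control replicate 1 stood at 6.53 for the cushion list, against 6.12 to 6.22 in the other controls, and at 633 CPM for Postn, against 332 to 416 CPM. Control replicate 1 also held Tbx1 at 0.215 CPM, against 0 to 0.0474 CPM in the other controls, which rests on 5 counts.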

How the results depend on the processing

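Over the 19 alternatives to the edgeR fit, no log2 fold change of Tbx2 (-1.30 to -0.79), Tbx3 (-2.90 to -1.73), Tbx5 (0.29 to 0.57) or Tbx18 (-0.63 to -0.51) changed sign, and Tbx20 (-0.25 to 0.05) turned in 1, at 0.05 without mutant replicate 1. With 1 library left out the ranges were -1.30 to -0.79 for Tbx2, -2.87 to -1.73 for Tbx3, 0.30 to 0.57 for Tbx5, -0.63 to -0.51 for Tbx18 and -0.25 to 0.05 for Tbx20, with 0 to 2 members and 12 to 275 genes in all called. Members passed the threshold under DESeq2 (3: Tbx2 at -1.02, Tbx3 at -2.18 and Tbx18 at -0.57, of 786 genes, 351 higher and 435 lower), the likelihood ratio test of edgeR (3: Tbx2 at -1.03, Tbx3 at -2.19 and Tbx18 at -0.57, of 773 genes), which was added after seeing the data, and with no filter on low counts (1: Tbx2 at -1.02). The cause was not tested. With the replicate number as a block 4 passed, Tbx2 at -1.20, Tbx3 at -2.49, Tbx5 at 0.50 and Tbx18 at -0.57, of 811 genes. Only numbers 1 and 2 occur in both groups, and the deviations of same-numbered libraries correlated at 0.08 and 0.01. The deviations of the 2 libraries labelled mutant mirror each other, since both are taken from their own mean. The correlations therefore cannot tell whether same-numbered samples share more than a number, such as a litter. The count over all genes, 200 (68 higher, 132 lower), was 114 with limma-voom, 52 without control replicate 5 and mutant replicate 2, 60 with Xist as a covariate and 66 among libraries with Xist over 10 CPM. None of the 5 tested members passed in these 4 fits, and among the libraries with Xist over 10 CPM the values were -0.91 for Tbx2, -2.01 for Tbx3, 0.51 for Tbx5, -0.57 for Tbx18 and -0.18 for Tbx20. Without mutant replicate 1 the split of the count was 151 higher and 62 lower. The 5 ratios to Tbx5 kept their sign with 1 count added or 1 library left out; with 1 library left out no p under 0.05 is possible. Per length of the longest transcript the controls averaged 19.5 CPM per kilobase for Tbx5 and 37.9 for Tbx20. The number of libraries labelled mutant limits every comparison.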
